A study of Mus musculus with 8 samples.

Results

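SCs (satellite cells, the stem cells that repair skeletal muscle) were sequenced from control mice and exercise mice, and the set described here holds the metallothionein, ferritin and iron handling genes. Its members were taken by name, 8 of the 52636 genes in the deposited table: Mt1, Mt2, Fth1, Ftl1, Cp, Slc40a1, Tfrc and Hmox1. Both groups were male C57B/6J mice, aged 10 weeks when they were divided into groups, and muscle was taken after the 4 weeks that followed. Control mice were untrained, and exercise mice trained for 4 weeks on a running belt, on 4 days of each week, with daily bouts of 30 min at a speed of 12 m/min. Each of the 4 control and 4 exercise libraries was made from about 800 SCs that had been sorted by flow cytometry for CD34 and α7-integrin and against CD45, CD31, CD11b and Sca1, with a library kit meant for single cells. The study's legends count these replicates as mice, but the labels do not tie each library to its own mouse, so p-values measure the spread between libraries, which may be technical. With bulk RNA from sorted cells, fewer cells of a type and less RNA per cell cannot be told apart.

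Metallothioneins are small cysteine-rich proteins that bind zinc and copper, and their genes are induced by metals, glucocorticoids and oxidants through elements in their promoters. Ferritin is a shell of heavy (Fth1) and light (Ftl1) chains that stores iron in the cell, and its translation is held back when iron is scarce by proteins that bind an iron responsive element in the 5′ untranslated region (UTR) of its mRNA. Iron enters most cells with transferrin through the receptor Tfrc and leaves through ferroportin (Slc40a1), ceruloplasmin (Cp) oxidises it on its way out, and heme oxygenase 1 (Hmox1) releases it from heme.

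The deposited values were FPKM, which divide reads by gene length. Levels of different genes within a library can thus be set side by side, as far as the lengths used fit the transcripts. Depth ran from 2339966 to 3013354 reads on genes in control libraries and from 1011737 to 1200221 in exercise libraries, with 5169 to 7307 and 2348 to 3289 genes detected. Mitochondrial transcripts took 2.09% to 15.3% of reads in control libraries, 7.85% and 7.56% in exercise 1 and 2, but 50.2% in exercise 3 and 68.7% in exercise 4. It is not certain that the libraries are 8 separate samples. Between exercise 1 and 2, chi-square over degrees of freedom was 3.86 for the reads of all genes with 10 or more, against 82.6 to 711 in every other pair within a group. Exercise 3 held the genes of exercise 1 that exercise 4 lacked at 0.299 of their share of reads and the genes of exercise 4 that exercise 1 lacked at 0.677, weights that sum to 0.976. For control 4 the like weights, from control 1 and control 3, were 0.280 and 0.714. Of 13 SC markers 9 had reads. Of these 5 (Myf5, Myod1, Vcam1, Chrdl2 and Cxcr4) had reads in control libraries only, beside 52.4% of all genes with a read. Cd34, a marker of the sort (2 to 112 reads), and Sdc4 (19 to 324 reads) were read in every library. Spry1 (0 to 154 reads) and Itgb1 (0 to 241 reads) were read in both groups. Pax7, Itga7, Cdh15 and Calcr, which define SCs more closely, had no read in any library, and Itga7 is the gene of the α7-integrin used for the sort. The myofibre genes summed to 40068 to 90714 FPKM in control and 19893 to 107985 in exercise libraries. The 11 with reads all had a log2 fold change below 0, with a median of -0.65 beside -1.42 over all genes tested. Among the 11, 2 were called lower (Mb and Myh1), beside 26.8% of all genes.

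Between the groups, Mt1 was the member that changed: its mean FPKM was 5.68-fold higher in exercise than in control libraries (3.26-fold without exercise 4, and 3.47-fold as a share of reads), and all 4 exercise values lay above all 4 control values. Mt2, its neighbour on the chromosome, and both ferritin chains did not pass the test, and Fth1 stayed among the most abundant transcripts of both groups. Cp was high in 3 of the 4 exercise libraries and did not pass the test either. Slc40a1, Tfrc and Hmox1 were at or near 0 reads in most libraries. In the fit over the 4328 genes whose FPKM averaged at least 1 (limma on log2(FPKM + 1), Benjamini-Hochberg adjustment), 5 members were tested, of which 1 was called higher and 0 lower at an adjusted p under 0.05. Over all genes tested 35.6% were called, 8.78% higher and 26.8% lower. At an unadjusted p under 0.05, 2 members were higher (Mt1 and Cp) and 0 lower, beside 11.9% higher and 37.7% lower over all genes. With limma-voom on the recovered reads 1 was called higher and 0 lower, beside 9.24% and 32.2%. The median log2 fold change of the 5 members was -0.16, beside -1.42 over all genes tested.

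**Figure D1:**
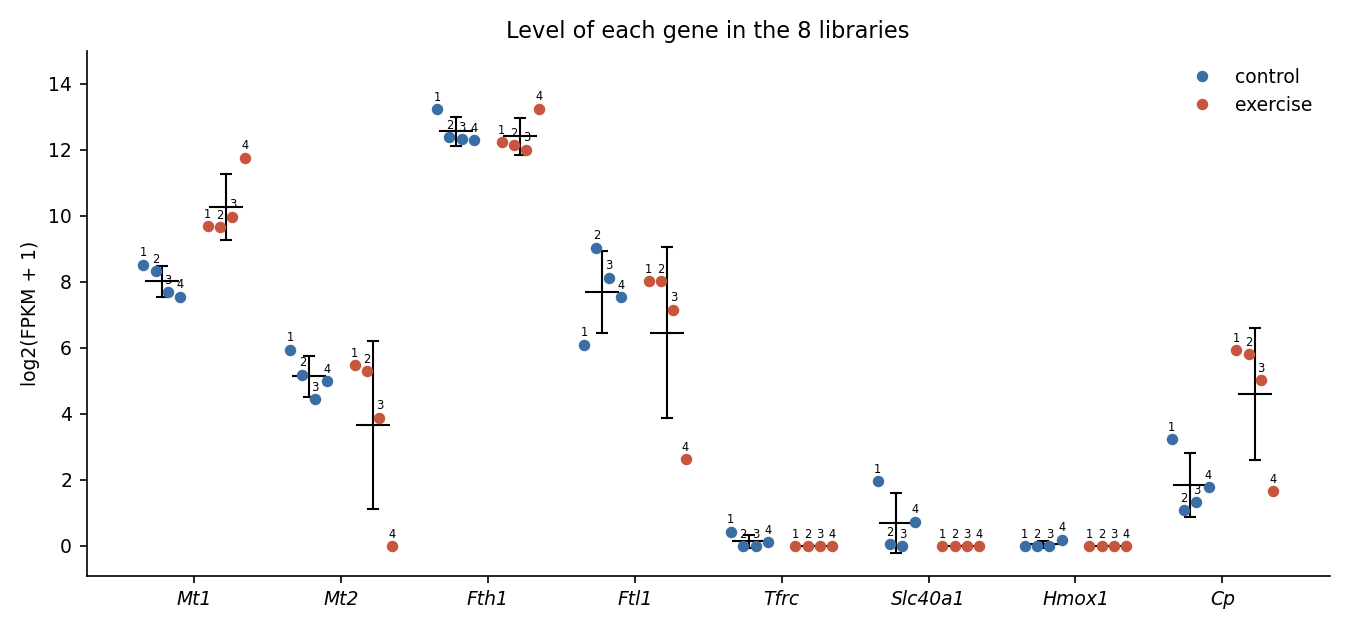
The plot shows log2(FPKM + 1) of the 8 genes in each control library (blue) and exercise library (red), numbered by library, with the mean and SD of each group as black bars. Mt1 is the gene whose groups do not overlap, with exercise 4 at 11.76 above the others, whereas Fth1 lies between 12.0 and 13.2 in both groups and Tfrc, Slc40a1 and Hmox1 lie near 0 apart from Slc40a1 in control 1 (2.91 FPKM) and control 4 (0.669 FPKM).

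Mt1 and Mt2 lie head to tail on chromosome 8, on the plus strand of GRCm38, Mt2 at chr8:94172664-94173568 and Mt1 at chr8:94179082-94180327, with 5513 bases between them. Their promoters are shown because the neighbouring genes carry like regulatory letters yet differed in these libraries. The windows are the RefSeq sequences (GRCm38.p6) from 250 bases before to 50 bases after the RefSeq start, and capitals mark matches on either strand to the core of the metal response element, spelled TGCACNC or TGCGCNC, the letters bound by the metal-sensing factor Mtf1.
Mt2, chr8:94172368-94172667, plus strand: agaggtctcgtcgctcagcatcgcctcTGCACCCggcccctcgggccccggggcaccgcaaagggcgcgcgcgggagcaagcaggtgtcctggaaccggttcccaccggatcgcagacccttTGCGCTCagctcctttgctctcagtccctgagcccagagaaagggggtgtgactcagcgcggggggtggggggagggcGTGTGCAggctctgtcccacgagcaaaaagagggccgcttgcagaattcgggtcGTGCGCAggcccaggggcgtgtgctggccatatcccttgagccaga
Mt1, chr8:94178839-94179138, plus strand: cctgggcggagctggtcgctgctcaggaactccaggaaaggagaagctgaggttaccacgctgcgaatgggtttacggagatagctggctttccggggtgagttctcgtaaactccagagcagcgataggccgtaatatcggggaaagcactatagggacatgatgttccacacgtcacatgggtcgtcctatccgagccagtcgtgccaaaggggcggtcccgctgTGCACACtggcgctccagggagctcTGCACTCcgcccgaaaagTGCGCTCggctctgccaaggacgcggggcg
The Mt2 window holds 4 matches, which begin 223, 128 and 50 bases before the start and at position 5 after it, 2 on each strand. The Mt1 window holds 3 matches, which begin 23 bases before the start and at positions 3 and 21, all on the strand of the gene. Of 32851 RefSeq windows of 300 bases, 25.7% hold at least 1 such match, 1.97% at least 3 and 0.517% at least 4. RefSeq windows were at hand for 6 members, and those of Cp, Fth1 and Ftl1 hold no match, while 1 of the 2 Tfrc windows holds 2 that overlap each other. A match is a description of these letters and not a site shown to be bound. Letters outside the windows were not searched, so these are not counts for the whole promoters, and positions hold for the RefSeq start only.

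Mt1 stood at 367, 317, 204 and 187 FPKM in control libraries 1 to 4 and at 824, 801, 1005 and 3470 FPKM in exercise libraries 1 to 4. The groups did not overlap, which was so, with the exercise libraries above, for 7.62% of all genes tested, and exercise 4 stood far above the rest. The means were 269 ± 87.6 FPKM (SD, n = 4) and 1525 ± 1300 FPKM (SD, n = 4). On the log2(FPKM + 1) scale the exercise libraries were higher by 2.25 (SE 0.63), with a limma adjusted p of 0.0278, and an exact two-sided permutation test over the 70 assignments gave p = 0.0286, the smallest it can give. Mt1 was the gene with the 167th to 247th highest FPKM in control libraries and the 45th to 59th highest in exercise libraries.

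The size of the Mt1 value in exercise 4 depends on the scaling between libraries. A read counts for 2.78 FPKM of Mt1 in exercise 4 and for 0.480 to 0.724 in the other exercise libraries. As a share of reads, Mt1 took 448, 454, 329 and 332 RPM (reads in 1000000 reads on genes) in control and 1622, 1574, 1156 and 1078 in exercise libraries, so that exercise 4 was then the lowest of its group and still above every control. Among reads outside the mitochondrial genome alone, Mt1 took 377 to 512 RPM in control and 1702 to 3442 in exercise libraries, with means of 434 ± 63.1 and 2307 ± 807 (SD, n = 4). Scaling to the read total gave a log2 fold change of 1.79 (limma adjusted p = 0.0327), and scaling to reads outside the mitochondrial genome, chosen after seeing the data, gave 2.36 (limma adjusted p = 0.00740).

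**Figure D2:**
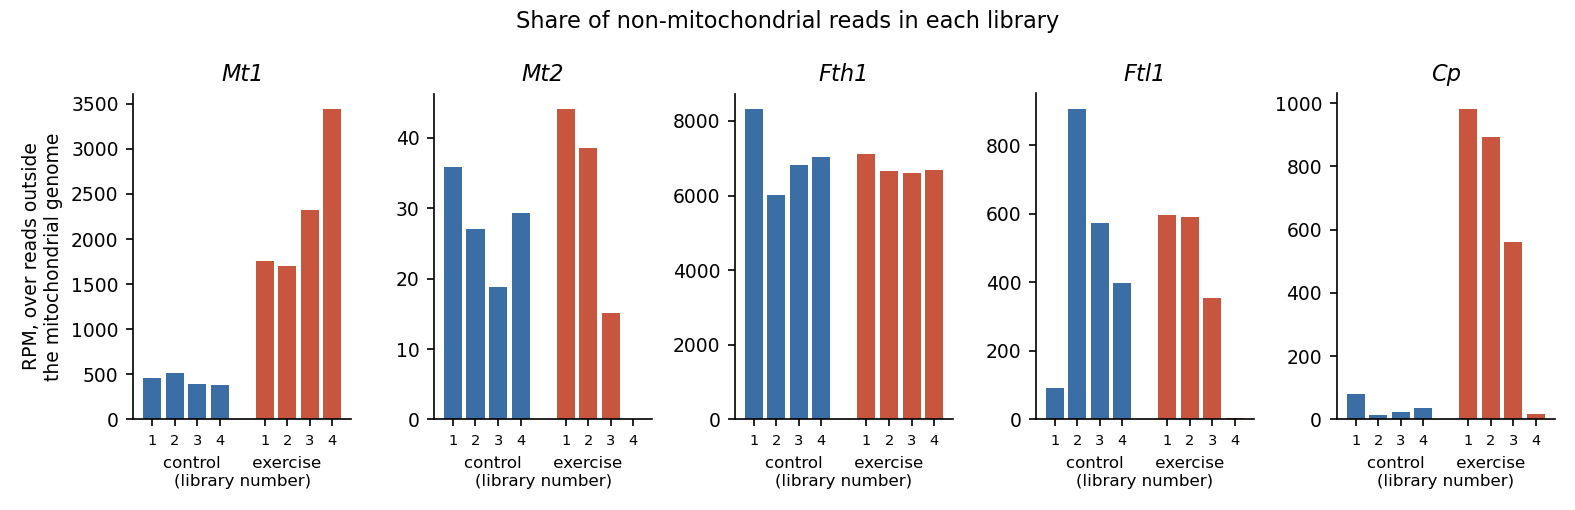
Bars give the RPM of each gene, counted over reads outside the mitochondrial genome, in control libraries 1 to 4 (blue) and exercise libraries 1 to 4 (red), on an axis of its own for each gene and starting at 0. Mt1 takes 377 to 512 in control and 1702 to 3442 in exercise libraries, Fth1 lies within 6013 to 8318 throughout, and Ftl1, Mt2 and Cp are at or near 0 in exercise 4.

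The direction for Mt1 was the same under all 20 other settings tried, with log2 fold changes from 1.75 without exercise 4 to 2.54. Most of these could not turn the sign. The groups did not overlap, so leaving out or averaging libraries keeps it, and several other settings left the log2 fold change at 2.25. The adjusted p was under 0.05 in 11 of the 20. With exercise 1 and 2 averaged, the limma adjusted p was 0.0562. Dropping control 4 and exercise 3 as well keeps 3 control and 2 exercise samples, for which the log2 fold change was 2.54 and the limma adjusted p was 0.458. That fit called 0 of the 4328 genes, so its adjusted p tells nothing of Mt1 in particular.

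**Figure D3:**
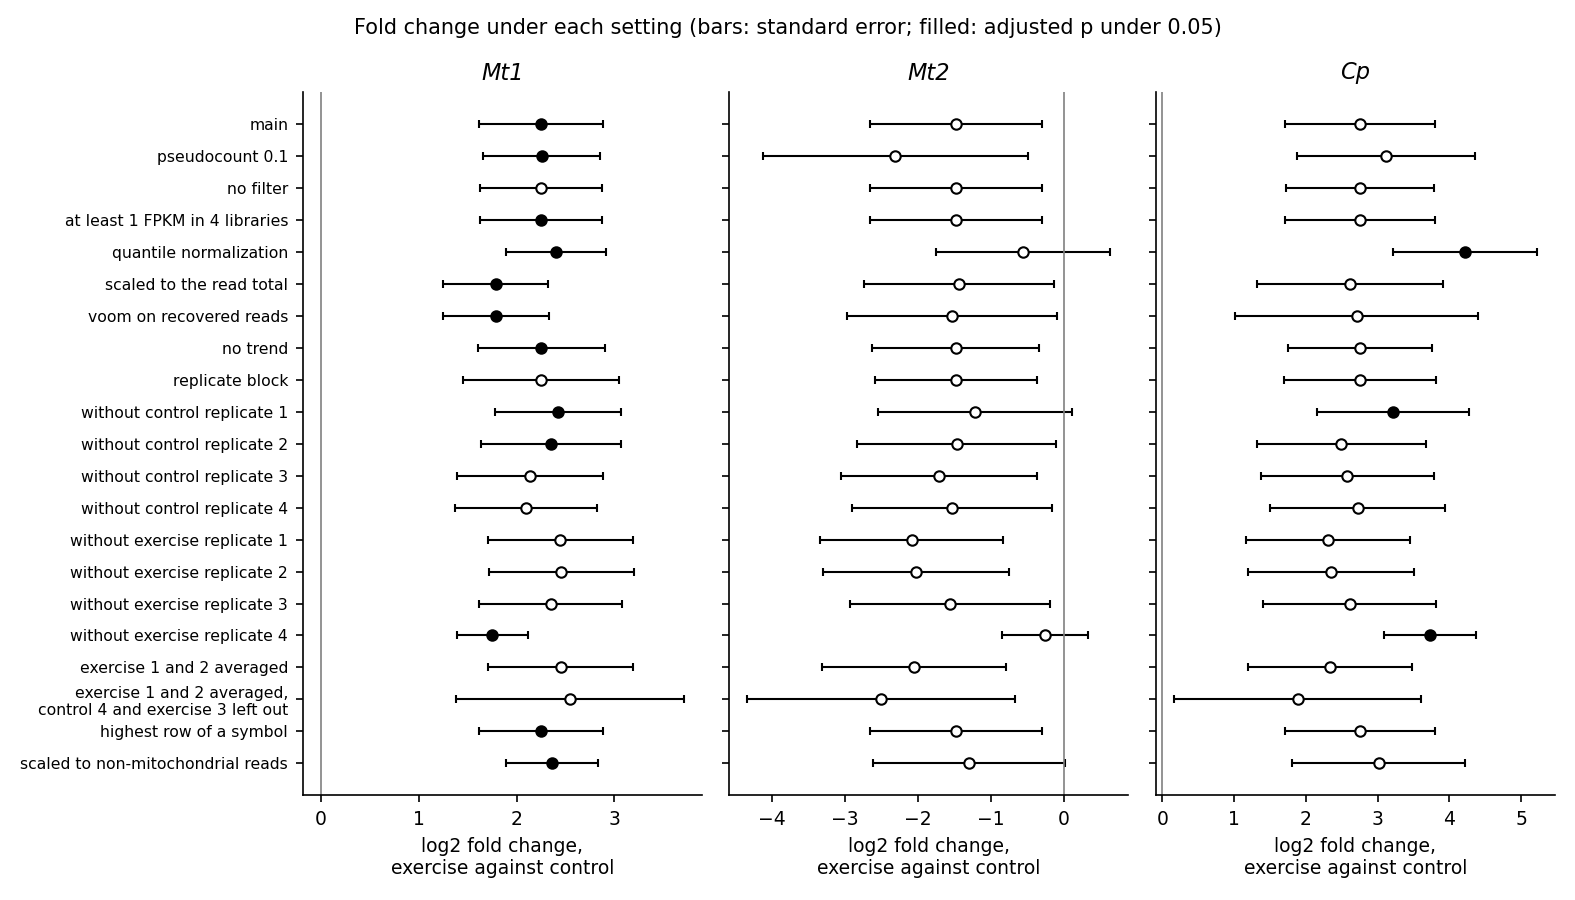
Points give the log2 fold change (exercise against control) of Mt1, Mt2 and Cp under each setting, bars the SE, and filled points an adjusted p under 0.05, with a line at 0. Mt1 lies between 1.75 and 2.54 throughout, Mt2 lies below 0 and is unfilled throughout, and Cp is filled only under quantile normalization, without control 1 and without exercise 4.

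Mt2 did not follow Mt1. It stood at 60.8, 35.5, 20.9 and 30.7 FPKM in control libraries 1 to 4 and at 43.7, 38.4, 13.8 and 0 FPKM in exercise libraries 1 to 4. In FPKM, exercise 1 and 2 lay within the control range and exercise 3 below it, and in exercise 4 no read was found, where 3 reads would be 17.7 FPKM. The log2 fold change was -1.48 (SE 1.18) with a limma adjusted p of 0.312, and the exact two-sided permutation test gave p = 0.343. Without exercise 4 the log2 fold change was -0.26. As a share of reads, exercise 1 and 2 stood at 40.6 and 35.6 RPM, just above every control library. These values rest on 9 to 82 reads in the 7 libraries with reads, against 926 to 1717 reads for Mt1, and the antisense gene Gm45774 that overlaps Mt2 had at most 2 reads.

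The ratio of Mt1 to Mt2 within a library does not depend on the scaling between libraries. Its size depends on the gene lengths used, 1246 bases for Mt1, which is its whole span on the chromosome, and 588 for Mt2. These lengths change the ratio by the same factor in every library. In reads alone it was 12.8 to 20.6 in control libraries and 39.9 to 154 in exercise 1 to 3. In FPKM the values were as follows. Mt1 was 6.04, 8.93, 9.74 and 6.07 times as high as Mt2 in control libraries 1 to 4, and 18.8, 20.9 and 72.8 times as high in exercise libraries 1 to 3. In exercise 4, with Mt2 at 0, it was at least 196-fold higher, taking 3 reads as the floor for Mt2. Every exercise ratio thus lay above every control ratio. Over the 7 libraries with reads of both genes the log2 ratio was 2.91 ± 0.36 (SD) in the 4 control libraries and 4.93 ± 1.09 (SD) in the 3 exercise libraries, a difference of 2.03. The exact two-sided permutation test over these 7 libraries gave p = 0.0286, its smallest possible value. The difference was 2.34 with exercise 1 and 2 averaged and 1.40 without exercise 3, where no p below 0.0667 was possible. Mt1 also rose against Fth1, from 0.0372 to 0.0591 of its FPKM in control libraries to 0.172 to 0.358 in exercise libraries, a ratio chosen after its values were seen and not tested. Mt3 and Mt4, the remaining metallothionein genes listed, had no read in any library.

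**Figure D4:**
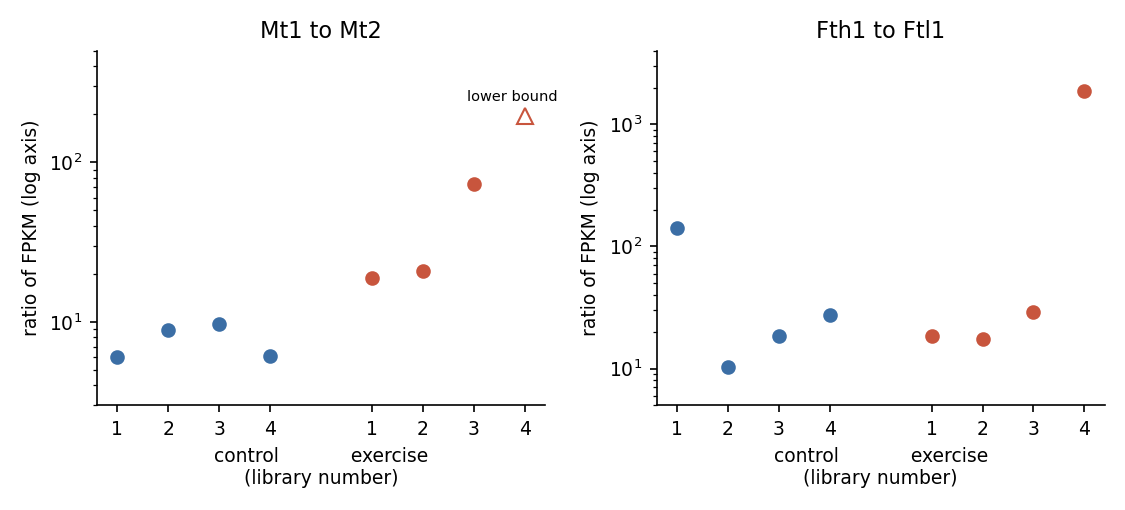
Points give the ratio of FPKM within each library on a log axis, for Mt1 to Mt2 (left) and Fth1 to Ftl1 (right), in control (blue) and exercise (red) libraries, and the open triangle is the lower bound of 196 in exercise 4. The ratio of Mt1 to Mt2 lies between 6.04 and 9.74 in control and at 18.8 or above in exercise libraries, whereas the ratio of Fth1 to Ftl1 overlaps between the groups and is highest in exercise 4 at 1874, from 2 reads of Ftl1.

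The ferritin chains came next, since metal bound by metallothionein and iron stored in ferritin are the main intracellular stores in the set. The 30 bases around the iron responsive element are shown, because this element ties both ferritin chains and ferroportin to the same control of translation, which mRNA levels do not measure. They come from the 5′ UTRs of the GENCODE vM21 transcripts on GRCm38, and capitals mark the C that bulges from the stem and the CAGTGN loop after the 5 bases that follow it.
Fth1, chr19:9982732-9982761, plus strand: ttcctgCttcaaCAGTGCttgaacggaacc
Ftl1, chr7:45459778-45459807, minus strand: gtcttgCttcaaCAGTGTttgaacggaaca
Slc40a1, chr1:45925464-45925493, minus strand: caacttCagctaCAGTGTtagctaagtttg
These letters occur in the 5′ UTR of 8.31% of the 50507 coding transcripts with such a region, whatever its length, so a match alone is no element.

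Fth1 (chr19:9982703-9985092, plus strand) codes for the heavy chain, which oxidises iron as it enters the shell. It stood at 9593, 5368, 5140 and 5016 FPKM in control libraries 1 to 4 and at 4796, 4506, 4115 and 9705 FPKM in exercise libraries 1 to 4. Control 1 and exercise 4 were high and the other 6 libraries lay together, so that the groups overlapped. The log2 fold change was -0.16 (SE 0.42) with a limma adjusted p of 0.773, and the exact two-sided permutation test gave p = 0.486. The sign turned without control 1 (0.067).

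Fth1 was the 6th to 9th most abundant gene in control libraries and the 8th to 25th in exercise libraries. It took 0.210% (95% Wilson interval 0.201% to 0.218%, counting error only) of the reads of exercise 4 and 0.814% (0.803% to 0.826%) of those of control 1. Among reads outside the mitochondrial genome, however, it took 6013 to 8318 RPM in control and 6613 to 7122 in exercise libraries, a narrow span in which all 4 exercise values fell inside the control range. On that scaling its log2 fold change was -0.05 (limma adjusted p = 0.890).

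Ftl1 (chr7:45457944-45459884, minus strand) codes for the light chain, which helps the iron core to form. It stood at 67.3, 523, 279 and 184 FPKM in control libraries 1 to 4 and at 260, 258, 142 and 5.18 FPKM in exercise libraries 1 to 4. The groups overlapped, with control 1 and exercise 4 the lowest of their groups, and the value in exercise 4 rests on 2 reads. The log2 fold change was -1.24 (SE 1.24) with a limma adjusted p of 0.417, and the exact two-sided permutation test gave p = 0.514. Without exercise 4 the log2 fold change was 0.038 (limma adjusted p = 0.967). Ferritin has many processed copies in the genome that can share its reads. Of 14 other ferritin copies, reads fell on 2, Ftl1-ps1 and Ftl2-ps, and together they held at most 6.16% as many reads as Ftl1 in any library.

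The chains did not keep a fixed proportion. Fth1 was 142, 10.3, 18.4 and 27.3 times as high as Ftl1 in control libraries 1 to 4 and 18.5, 17.5, 29.0 and 1874 times as high in exercise libraries 1 to 4. The last ratio rests on 2 reads of Ftl1, under the floor, with an exact 95% binomial interval of 518 to 15482 for counting error only. Control 1 and exercise 4, the libraries with the highest Fth1 in FPKM, had the lowest Ftl1, although as a share of reads Fth1 was lowest in exercise 4 (2096 RPM). The log2 ratio differed by 1.14 between the groups with an exact two-sided permutation p of 0.571, and by -0.48 without exercise 4.

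Cp (chr3:19957054-20009145, plus strand) codes for ceruloplasmin, the copper-carrying ferroxidase that works beside ferroportin. It stood at 8.43, 1.13, 1.50 and 2.41 FPKM in control libraries 1 to 4 and at 59.8, 54.7, 31.7 and 2.18 FPKM in exercise libraries 1 to 4. Exercise 1 to 3 lay above every control, and exercise 4, with 6 reads, lay within the control range in FPKM and below it as a share of reads (5.19 RPM against 12.4 to 79.1 RPM). The means were 3.37 ± 3.42 and 37.1 ± 26.3 FPKM (SD, n = 4), 11.0-fold apart, or 22.1-fold without control 1.

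The log2 fold change of Cp was 2.75 (SE 1.04) with a limma adjusted p of 0.0610, and the exact two-sided permutation test gave p = 0.0857. It passed the test without exercise 4 (3.73, limma adjusted p = 0.00450), without control 1 (3.21, limma adjusted p = 0.0440) and with quantile normalization (4.21, limma adjusted p = 0.0145). With exercise 1 and 2 averaged, control 4 and exercise 3 left out, it was 1.88, in the fit that called 0 of 4328 genes. The high values are thus those of exercise 1, exercise 2, which differs little from it, and exercise 3, where Cp stood at 280 RPM beside 274 from the weighted sum of exercise 1 and 4. Hps3, which overlaps Cp on the other strand, had 1 read in all libraries together.

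Genes of stromal cells were abundant in the same libraries. All 9 markers listed for fibro-adipogenic progenitors had reads, and they summed to 3045 to 4547 FPKM in control and 3620 to 9597 FPKM in exercise libraries. Of these 2 were called higher (Gsn and Lum) and 1 lower (Col1a2), 3 of 9 beside 35.6% over all genes. Gsn, which codes for gelsolin, made up most of the sum in exercise 1 to 3, and it stood at 6902, 7201, 3693 and 1484 FPKM in exercise libraries 1 to 4. Lum, which codes for lumican, stood there at 450, 491, 311 and 532 FPKM, and Col1a2, a chain of type I collagen, at 157, 153, 80.8 and 20.7 FPKM against 388 to 972 FPKM in control libraries. The sort was made against Sca1, the protein of Ly6a that marks these progenitors, and Ly6a had 0 to 33 reads a library. The part of these cells in the Cp values was not tested.

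The weighted sums also bear on the other members. In exercise 3, Mt1 stood at 1156 RPM beside 1215 from the weighted sum of exercise 1 and 4, Fth1 at 3292 beside 3379, and Ftl1 at 176 beside 165. In control 4, Mt1 stood at 332 beside 361 from control 1 and 3, Fth1 at 6203 beside 6403, and Ftl1 at 352 beside 371. The 5 tested members in these 2 libraries stood at 0.618 to 1.22 times the weighted sum, with both ends set by Mt2, which had 9 and 72 reads.

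Slc40a1 (chr1:45908068-45926523, minus strand), the only known exporter of iron from the cell, had 60, 1, 0 and 24 reads in control libraries 1 to 4 and no read in exercise libraries. This was 2.91, 0.036, 0 and 0.669 FPKM in control libraries, so that control 1 and control 4 carried nearly all of it. Taking 3 reads per library as the floor, it was at least 1.94-fold lower in exercise than in control libraries. That bound rests on control 1, without which the control mean was 0.235 FPKM, under the mean floor of 0.466 FPKM in exercise libraries. The exact two-sided permutation test gave p = 0.143.

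Tfrc (chr16:32608920-32632794, plus strand), the transferrin receptor that dividing cells use to take up iron, had 5, 0, 0 and 2 reads in control libraries 1 to 4 and none in exercise libraries. Hmox1 (chr8:75093621-75100589, plus strand) had 1 read, in control 4. Their group means were under the floor in both groups, so no fold is given, and a difference was not detectable at this depth. In exercise libraries a count of 0 allows up to 0.437 FPKM of Tfrc and 1.55 FPKM of Hmox1 in exercise 1 to 3, and up to 1.68 and 5.95 FPKM in exercise 4. Such limits and intervals leave out all error but that of counting, as reads copied by amplification do not each stand for a molecule.

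Macrophages and erythroid cells also handle much iron, and their markers were read beside the set. Of 14 macrophage and monocyte markers 13 had no read in any library, Ptprc, Adgre1 and Cd68 among them, and Cd14 had at most 5 reads. Among erythroid markers, Alas2, Slc4a1 and Epor had no read. Globin transcripts were present in control 3 and 4 and all but absent elsewhere, at 0 to 344 reads a library in control and 0 to 2 in exercise libraries. Of 10 endothelial markers 4 had reads and 2 were tested, with 1 called higher (Tek) and 1 lower (Kdr), beside 35.6% of all genes called. Each was under 1 FPKM in the group where it was low, so it passed the filter only through the other group and had to differ. Tek stood at 24.0, 25.8, 14.7 and 4.42 FPKM in exercise libraries 1 to 4 and at most at 0.093 FPKM in control libraries, and Kdr had 0 to 82786 reads in control and 0 to 8 in exercise libraries. Mt1 and Hmox1 respond to cell stress, so markers of dissociation were read too. All 12 had reads, 0 were called higher and 2 lower (beside 8.78% and 26.8% of all genes), and they summed to 2741 to 4855 FPKM in control and 1428 to 33992 FPKM in exercise libraries, where the top of the range was Dnajb1 with 32894 FPKM in exercise 4. Their part in the Mt1 values was not tested.

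The genes whose pattern over the 8 libraries was most like that of a member, by Pearson r of log2(FPKM + 1), were different for each. For Mt1 they were Rps15a-ps6, Rap1b and Rps27a (r from 0.980 to 0.989). For Mt2 they were Apod, Sulf2 and Serpinf1 (0.980 to 0.991), for Fth1 Cenpv, Rps16-ps2 and Sdhb (up to 0.981), for Ftl1 Comp, Eef1g and Ndufb10 (0.991 to 0.993) and for Cp Mrps9, Enpp2 and Dennd2a (0.995 to 0.998). No list named the other family member or the other ferritin chain. These r are descriptions over 8 libraries that share their scaling, and at least 2 of the libraries are nearly alike.

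The wider metal genes were counted in 4 lists of 111 genes, of which 58 had a read, 25 were tested, and 2 rose and 7 fell. These 9 calls are 36.0% of the genes tested, near the 35.6% over all genes, and the median log2 fold change was -1.92. Of the 9 called genes 7 had a mean under 1 FPKM in the group where they were low, so that they passed the filter only through the other group and had to differ. The exceptions were Hfe2 and Atox1, and all 5 tested members of the set had both means above 1 FPKM. Of the 58 genes with a read, 29 had reads in control libraries only, 3 of them among the 7 that fell, beside 4729 of the 9029 genes with a read in the whole table.

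Iron uptake, regulation and transport gave 2 genes that rose and 2 that fell of 8 tested. Hfe2, which codes for the muscle-rich BMP co-receptor hemojuvelin and is now named Hjv, fell from 553, 2382, 1410 and 997 FPKM in control libraries 1 to 4 to 32.4, 30.6, 24.0 and 17.1 FPKM in exercise libraries 1 to 4. The groups were far apart, with a log2 fold change of -5.47 (SE 0.65, limma adjusted p = 0.000725), and it was the gene of these lists with the lowest adjusted p. The part of myofibre RNA in the Hfe2 values was not tested. All 11 tested myofibre genes had log2 fold changes below 0, with a median of -0.65 beside -1.42 over all genes tested. Slc39a14, a zinc transporter that also carries iron, fell from 1.90 to 6.10 FPKM to at most 0.059 FPKM (limma adjusted p = 0.0142). It passed the filter only through the control libraries.

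Cybrd1, a reductase that turns ferric into ferrous iron, rose from 0, 0.061, 0 and 0.141 FPKM in control libraries 1 to 4 to 7.95, 7.75, 3.55 and 2.60 FPKM in exercise libraries 1 to 4 (limma adjusted p = 0.0104). Lcn2, the siderophore-binding lipocalin, rose from at most 0.096 FPKM to 4.10, 2.87, 1.03 and 1.32 FPKM (limma adjusted p = 0.0312). Both are low genes, with 4 to 71 reads for Cybrd1 and 1 to 18 for Lcn2 in exercise libraries. For Lcn2 the values of exercise 4 and control 4 are a single read each, under the floor of 3. Steap4, another metal reductase and among the most abundant of the list, had overlapping groups at 15.2 to 257 and 9.90 to 155 FPKM (limma adjusted p = 0.763). The call for Hfe2 held in 19 of 20 other settings. For Cybrd1 the adjusted p was under 0.05 in 19, for Slc39a14 in 13 and for Lcn2 in 9. These 3 genes passed the filter only through the group where they were high. Their adjusted p values and counts of settings are therefore no support for a difference.

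Iron-sulfur cluster assembly gave 0 genes that rose and 3 that fell of 8 tested. Cisd1, an iron-sulfur protein of the outer mitochondrial membrane, stood at 938, 43.4, 19.6 and 184 FPKM in control libraries and had no read in exercise libraries, at least 76.5-fold lower, or at least 21.3-fold without control 1. Fam96b, a cluster targeting factor now named Ciao2b, stood at 63.2, 8.19, 55.7 and 42.0 FPKM and was likewise unread in exercise libraries, at least 10.8-fold lower. Cisd2, a relative of Cisd1, stood at 0.057, 8.73, 4.44 and 3.44 FPKM and was at least 7.61-fold lower, or at least 4.83-fold without control 2. The limma adjusted p values were 0.00305, 0.00188 and 0.0468, and for Cisd2 the adjusted p was under 0.05 in 6 of 19 other settings. All 3 genes passed the filter only through the control libraries, so these p values are no support for a difference. Iscu, the scaffold on which clusters are built, did not pass the test, with 1.53 to 260 FPKM in control and 0 to 20.7 FPKM in exercise libraries.

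Heme synthesis and breakdown gave 1 gene that fell of 4 tested, and zinc and copper transport gave 1 of 5. Slc48a1, a heme transporter of lysosomes, stood at 0.648, 61.8, 34.7 and 22.2 FPKM in control libraries and at 1.11, 0, 0 and 0 FPKM in exercise libraries (log2 fold change -3.83, limma adjusted p = 0.0289). Atox1, the copper chaperone of the secretory pathway, stood at 127, 3.02, 1042 and 722 FPKM in control and at 17.7, 3.48, 1.67 and 0 FPKM in exercise libraries (log2 fold change -5.18, limma adjusted p = 0.0409). In both the groups overlapped through a single low control library. The adjusted p was under 0.05 in 9 of 20 other settings for Slc48a1 and in 7 for Atox1. Slc48a1 passed the filter only through the control libraries, so its p and its count of settings are no support for a difference.

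Pgrmc1, which binds heme, and Slc39a13, a zinc transporter of the Golgi, were among the most abundant of their lists and did not pass the test. In exercise libraries 1 to 4 they stood at 0, 0, 26.7 and 144 FPKM and at 0, 0, 110 and 562 FPKM. Both were thus read in exercise 3 and 4 and not in exercise 1 and 2, whereas Cp was high in exercise 1 to 3.

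**Figure D5:**
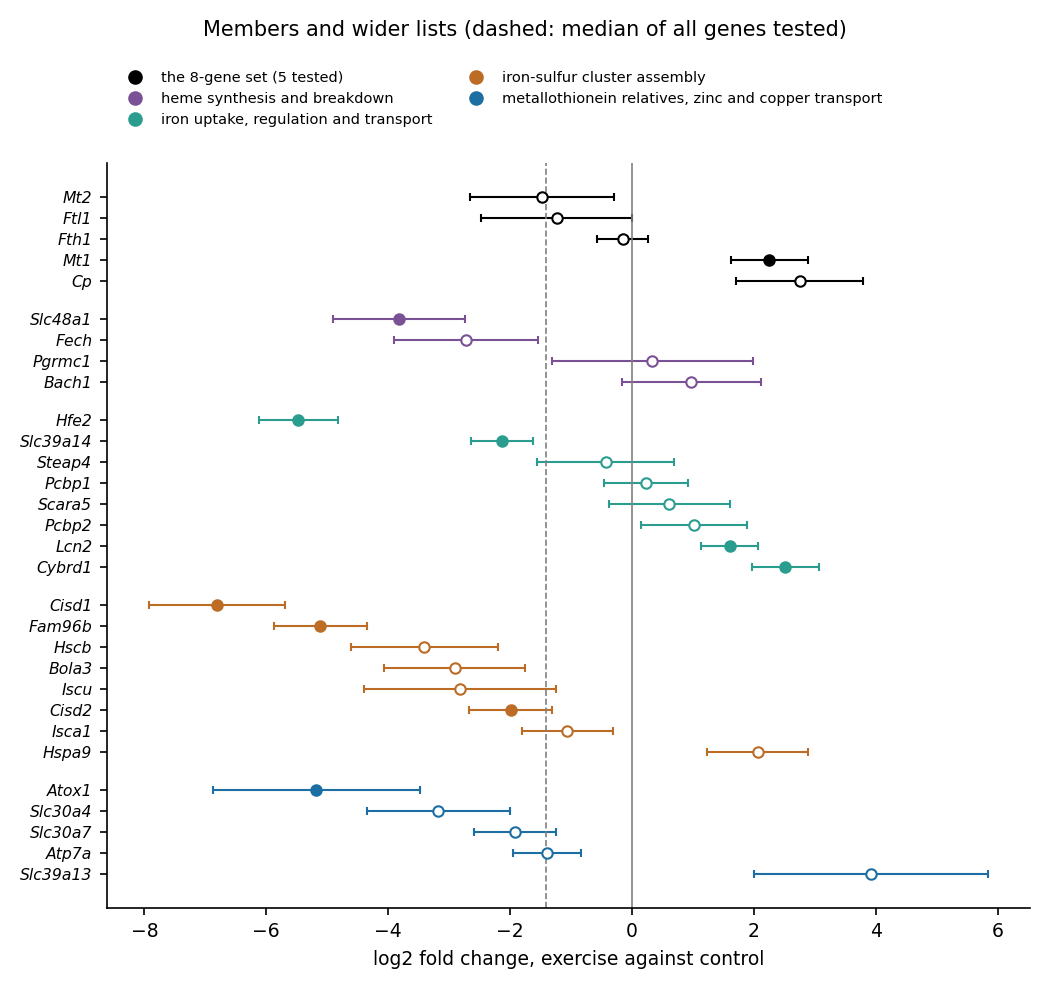
Points give the log2 fold change (exercise against control) with its SE for the 5 tested members of the set and the 25 tested genes of the 4 wider lists, coloured by list, filled where the adjusted p is under 0.05, with lines at 0 and at the median of all genes tested (-1.42, dashed). Mt1, Cybrd1 and Lcn2 are the filled points above 0, and 7 genes from Hfe2 to Cisd2 are filled below 0.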

How the data were processed

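The authors aligned paired reads of 150 bases with Bowtie 0.12.9 to mm10, per the labels, and made FPKM with Cufflinks 2.1.1. Their read counts and DESeq2 fits were not used here. The deposited FPKM, multiplied by gene length, were whole multiples of 1 step per library for 100% of values (tolerance 0.001), so reads could be recovered, and the library size behind them was a size factor and not the read total. Of the identifiers 99.7% were in GENCODE vM21 (GRCm38). Where several rows carried a symbol, their values were added up.

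The 4328 genes whose FPKM averaged at least 1 were fitted with limma 3.58.1 (R 4.3.3) after taking log2(FPKM + 1) (lmFit, eBayes with a trend, Benjamini-Hochberg adjustment), which was tested on simulated data. A fold change on this scale understates that of low genes. Exact two-sided permutation tests of single values were run in Python 3.11.15 with numpy 2.4.6. The floor was 3 reads per library. Members and lists were chosen with earlier results of these data known. Named were all 8 members, the called genes of each list (at most 6) and its 2 with the highest mean FPKM, and the 3 genes nearest each tested member in pattern. The alternatives were another pseudocount (0.1), other filters and scalings, voom, no trend, a replicate block, the highest row of a symbol, leaving out each library, and merging like libraries.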

Additional observations from a re-analysis of the deposited data

Results flagged for a closer look

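In 4 of the 13 groups of 4 libraries with any reads of a member, a library lay farther from the rest than Dixon's 95% critical value allows, where chance gives 1 in 20 groups (0.65 of 13). In the case of Hmox1 a single read in 1 library was bound to exceed it, and the chance value takes the libraries as independent, which exercise 1 to 3 and control 4 may not be. On the log2(FPKM + 1) scale, Mt1 stood at 11.76 in exercise 4 and at 9.65 to 9.97 in the other exercise libraries. Fth1 stood at 13.23 in control 1 and at 12.29 to 12.39 in the other control libraries. Ftl1 stood at 2.63 in exercise 4 and at 7.16 to 8.03 in the other exercise libraries. Hmox1 stood at 0.193 in control 4, from a single read, and at 0 in the other control libraries.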

How the results depend on the processing

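Mt1, the only member called, kept its direction in all 20 alternatives and its call in 11. Its groups did not overlap, so leaving out, averaging or merging libraries could not turn its sign. The number of members called, all higher, was 1 as reported, 2 with quantile normalization (Mt1 and Cp), and 0 with no filter, with the replicate block, when the nearly alike exercise 1 and 2 were merged, and when control 4 and exercise 3 were dropped besides. Leaving out each library in turn gave 0 to 2. No alternative called a member lower. Of the wider lists, 9 genes were called, 4 after merging exercise 1 and 2, 0 after dropping control 4 and exercise 3 besides, and 4 to 13 with each library left out, while the share of all genes called moved alike, from 35.6% to 13.9% after merging and to 0 after dropping, a fit that called no gene. With each library left out in turn, the log2 fold change of Fth1 (-0.16) ran from -0.44 to 0.067 (without control 1), that of Ftl1 (-1.24) from -1.77 to 0.038 (without exercise 4), and the log2 ratio of Fth1 to Ftl1 (1.14) from -0.48 (without exercise 4) to 1.90. Fth1 also turned, to 0.065, after merging and dropping. The log2 ratio of Mt1 to Mt2 (2.03) ran from 1.40 to 2.37 with each library left out, where the smallest p possible was 0.0667 or 0.1, and was 2.34 after merging exercise 1 and 2. The cause of these shifts was not tested, except that averaging or leaving out leaves fewer samples. Libraries with the same number did not deviate together (r from -0.0169 to 0.0393), so the numbers were not taken as pairs. Under the replicate block Mt1 had an adjusted p of 0.0596 and no other member's call changed. In exercise 4 a read is worth most, and 3 reads are 17.7 FPKM of Mt2, against 20.9 to 60.8 FPKM in control libraries.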
